A study of Mus musculus with 12 samples.

Results

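Tdrd1, Tdrd5, Tdrd6, Tdrd7, Tdrd9 and Tdrkh encode Tudor-domain proteins of the germ granules of mouse spermatogenic cells. They were found by gene symbol in a table of 23235 genes. All 6 were among the 15400 genes that reached at least 1 FPKM (fragments per kilobase of transcript, relative to the mapped fragments) in at least 3 of 12 libraries. The libraries came from spermatocytes of C57BL/6 mice that were sorted by flow cytometry, with a check of purity, as leptotene/zygotene (LZ) or pachytene cells, cells before and after the homologous chromosomes have fully synapsed in meiosis. Each stage was represented by 3 libraries labelled wild type (WT) and 3 labelled Rnaseh1 knock-out (KO-labelled), made from amplified cDNA of polyadenylated RNA. All 4 groups share the strain background and differ in the genotype label, the stage or both. The age of the mice, the Rnaseh1 allele and the cells in which it was deleted are not given in the sources used here. The labels do not say that replicates came from separate animals, so p-values measure only the spread between these libraries, which may be technical.

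Tudor domains bind methylated arginines, which PIWI proteins carry near their amino terminus. PIWI proteins hold piRNAs, the small RNAs that silence transposons in germ cells, and Tudor-domain proteins gather them in granules without a membrane. In spermatocytes these granules include the cement between mitochondria, and in spermatids the chromatoid body. TDRD1 binds PIWI proteins in the intermitochondrial cement, TDRKH sits on the mitochondrial outer membrane and takes part in trimming piRNA precursors, and TDRD9 is an RNA helicase that works with the PIWI protein MIWI2. TDRD5 is needed for piRNA production and for the chromatoid body, TDRD6 is a structural component of that body, and TDRD7 takes part in its remodelling. The members lie on 6 different autosomes, chromosomes 19, 1, 17, 4, 12 and 3 in the order Tdrd1, Tdrd5, Tdrd6, Tdrd7, Tdrd9 and Tdrkh.

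Summed FPKM of the tested genes ranged from 426100 to 879900 in the LZ libraries and from 3312000 to 6683000 in the pachytene libraries, after the authors had scaled the values by ERCC spike-in RNA. Rnaseh1 itself, which encodes the enzyme that degrades RNA in RNA:DNA hybrids, was not called lower in the KO-labelled libraries: its log2 change was -0.28 at LZ (limma, Benjamini-Hochberg adjusted p = 0.407) and 0.56 at pachytene (adjusted p = 0.0638). At pachytene it had 77.4, 68.9 and 94.3 FPKM in KO-labelled libraries, all above the WT values of 52.7, 51.7 and 56.8, as had 36.4% of all genes. Which stretch of the gene is deleted is not given, so the transcript level does not check the genotype labels. The summed level of 9 round spermatid markers lay between 37160 and 45170 FPKM in WT pachytene libraries but between 1741 and 9424 in KO-labelled ones, and all 9 fell. At LZ the same sum lay between 14640 and 31830 in WT but between 789.4 and 5506 in KO-labelled libraries, and 5 of the 9 fell. The pachytene list (11 markers) also summed lower at LZ, at 2646 to 3987 FPKM in WT against 1586 to 1896, and 6 of the 11 fell. At LZ 12.9% of all genes fell. After median-ratio scaling (the median gene of every library set to a common level), neither list had a gene called at LZ. At an unadjusted limma p under 0.05, 5 round spermatid markers were lower, as were 4 pachytene markers, with 1 higher. Round spermatid sums stayed apart there (30680 to 50940 in WT against 2455 to 16780). Pachytene list sums overlapped (5623 to 7270 against 4242 to 5780). At pachytene the sum of the pachytene list lay between 32070 and 41030 FPKM in WT but between 55750 and 87330 in KO-labelled libraries. Of its 11 markers 8 rose, beside 24.6% of all genes. There, markers of spermatogonia summed to 402.5 to 484.4 FPKM in WT against 49.15 to 121.6 (7 of 10 fell). Those of peritubular and endothelial cells summed to 542.5 to 702.5 against 177 to 220.2 (3 of 6 tested fell and 1 rose). Those of Sertoli cells summed to 874.8 to 1164 against 557 to 613.6 (1 of 8 tested fell). Of all genes 14.3% fell. Leydig cell marker sums overlapped between genotypes at pachytene (2349 to 8741 FPKM in WT against 1379 to 5517). Of the 8, 2 rose and 0 fell, beside 24.6% of all genes that rose. Blood and macrophage marker sums overlapped too (93.81 to 526.3 against 258.9 to 400.8), and 1 of 6 tested rose and 1 fell. After median-ratio scaling 8 of the 9 round spermatid, 6 of the 10 spermatogonial and 2 of the 6 peritubular and endothelial markers fell. So did 3 of the 8 Sertoli markers, beside 9.68% of all genes. Of the pachytene markers 3 of 11 rose, beside 3.28%. Leydig cell markers, 8 in all, summed to at most 19.9 FPKM in a WT LZ library and to at least 2349 in a WT pachytene library, with Cyp17a1, Cyp11a1, Hsd3b1, Hsd3b6 and Lhcgr under 1 in every WT LZ library. Leptotene and zygotene markers summed to 3616 to 4255 FPKM in WT LZ and to 8138 to 11700 in WT pachytene libraries. Of 12 tested, 4 rose and 4 fell, beside 80.9% and 0.487% of all genes. After median-ratio scaling the sums were 6314 to 8603 and 3826 to 5824, and 2 rose and 8 fell, beside 20.2% and 18.1%. Between genotypes at pachytene 5 fell and 1 rose on the spike-in scale. The sorted fractions thus differed in markers of other cell types as well as in stage, and the part of these differences in the results below was not tested.

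In wild type, all 6 members rose from LZ to pachytene, by 2.0 to 4.42 on the log2(FPKM + 1) scale, and all 6 had every pachytene library above every LZ library. Of all genes tested, 80.9% rose and 83.0% had such separated groups, so the count of members is near the background. The median gene changed by 1.64 on the log2 scale, 0.487% of genes fell, and 0 members did. Changes are therefore also given relative to that median, and after median-ratio scaling, which brings the median gene of every library to a common level. On that scale 20.2% of genes rose and 18.1% fell, and 4 of the 6 members rose. A gene was called when its Benjamini-Hochberg adjusted p in limma, over all 15400 genes, was under 0.05. In these bulk samples, fewer cells of a type and less RNA per cell cannot be told apart.

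Tdrd1 was listed at 18.1, 21.8 and 19.0 FPKM in the WT LZ libraries and at 426, 386 and 512 in the WT pachytene libraries. The stages were far apart. Its log2 change was 4.42 (SE 0.19, limma adjusted p = 1.05e-08), 2.78 above the median gene, and 2.39 after median-ratio scaling (adjusted p = 1.5e-05). Tdrd9 was at 22.7, 16.8 and 13.7 FPKM at LZ and at 143, 116 and 162 at pachytene. The log2 change of 2.93 (SE 0.23, limma adjusted p = 1.38e-07) was 1.29 above the median gene, and it was 0.91 after median-ratio scaling (adjusted p = 5.94e-04). Tdrkh had the smallest change of the 6. It was the highest of the 6 at LZ, with 51.3, 55.3 and 49.7 FPKM, and reached 165, 237 and 239 at pachytene. Its log2 change of 2.0 (SE 0.21, limma adjusted p = 1.41e-06) lay 0.36 above the median gene and turned to -0.05 after median-ratio scaling (adjusted p = 0.877), where its means were 100.4 at LZ and 97.6 at pachytene.

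Of the genes with roles in the chromatoid body, Tdrd5 was at 16.4, 22.2 and 18.4 FPKM in WT LZ and at 345, 252 and 430 in WT pachytene libraries. Its log2 change of 4.08 (SE 0.25, limma adjusted p = 3.97e-08) was next to that of Tdrd1, and it was 2.05 after median-ratio scaling (adjusted p = 5.94e-05). Tdrd6 was at 25.4, 27.4 and 16.6 FPKM at LZ and at 323, 209 and 346 at pachytene. The LZ libraries of Tdrd6 spread more than those of Tdrd1, and the stages stayed separate. The gene changed by 3.60 (SE 0.28, limma adjusted p = 1.19e-07), or by 1.57 after median-ratio scaling (adjusted p = 3.67e-04). Tdrd7 was at 37.9, 36.7 and 19.3 FPKM at LZ and at 184, 136 and 216 at pachytene. Tdrd7 changed by 2.51 (SE 0.29, limma adjusted p = 3.07e-06), and the 0.48 left after median-ratio scaling was not called (adjusted p = 0.0502).

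**Figure D1:**
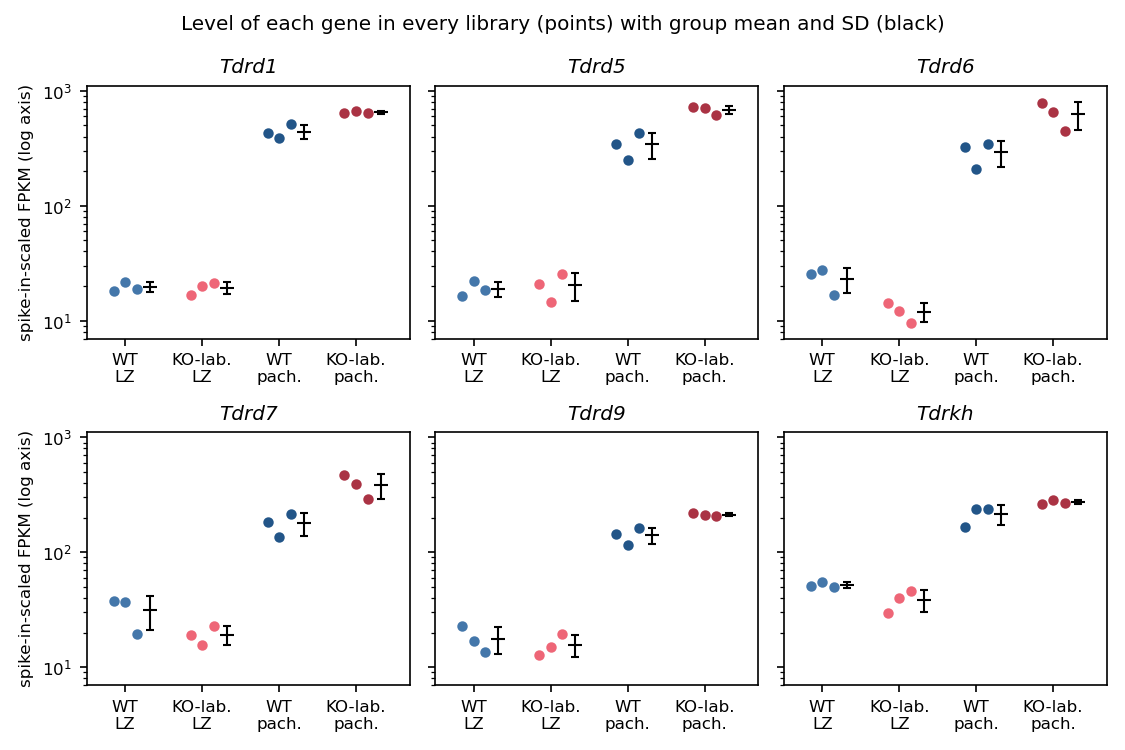
FPKM (log axis) of each member in each of the 12 libraries, by group; points are libraries, and black marks are group means with SD (n = 3). Pachytene libraries lie above LZ libraries for all 6 members, and Tdrkh is the highest member in every LZ group.

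**Figure D2:**
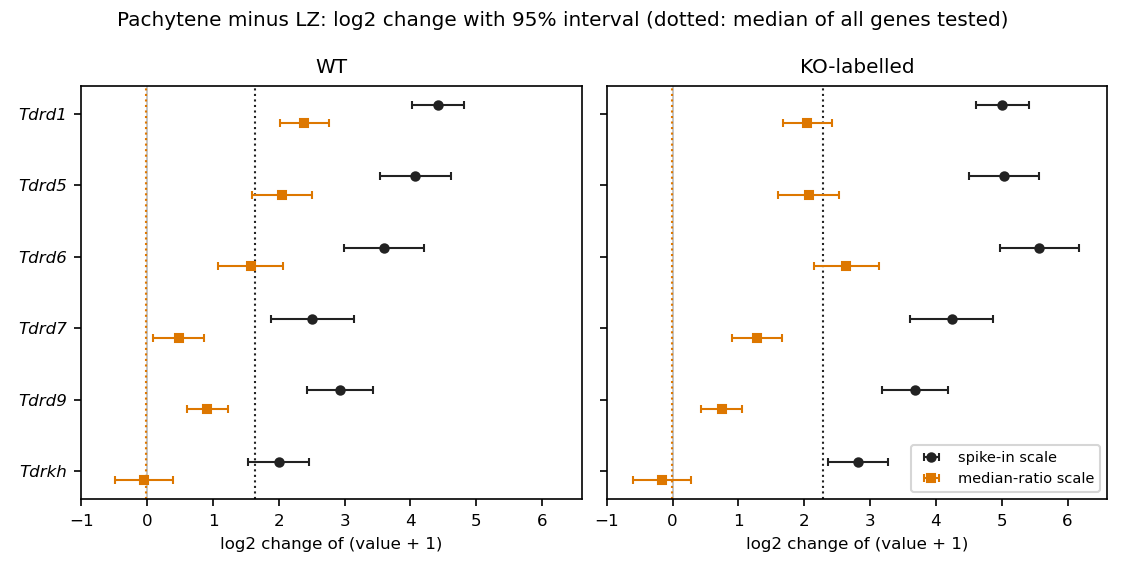
Log2 change from LZ to pachytene for each member in WT and KO-labelled cells, on the spike-in scale and after median-ratio scaling; points are limma estimates and bars their 95% confidence intervals, and dotted lines the medians of all genes. Tdrkh lies near 0 after median-ratio scaling (-0.05 in WT and -0.17 in KO-labelled cells), while Tdrd1, Tdrd5 and Tdrd6 stay above it.

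The promoters of the members with the 2 largest changes (Tdrd1, Tdrd5) and the 2 smallest (Tdrd7, Tdrkh) are shown, since the members rose together but unequally. RefSeq entries on build GRCm38.p6 (not the build of the expression table) were found for 5 of the 6 members; 9 start sites gave 9 windows of the 250 bases before the start. The motif searched was AACNG, the core bound by MYB proteins, on both strands; MYBL1 (A-MYB) is a regulator of pachytene genes. Capitals mark each match. The first listed entries are chr19:56825959-56826208 on the + strand for Tdrd1, chr1:156303349-156303598 on the - strand for Tdrd5, chr4:45965085-45965334 on the + strand for Tdrd7 and chr3:94412994-94413243 on the + strand for Tdrkh.
Tdrd1: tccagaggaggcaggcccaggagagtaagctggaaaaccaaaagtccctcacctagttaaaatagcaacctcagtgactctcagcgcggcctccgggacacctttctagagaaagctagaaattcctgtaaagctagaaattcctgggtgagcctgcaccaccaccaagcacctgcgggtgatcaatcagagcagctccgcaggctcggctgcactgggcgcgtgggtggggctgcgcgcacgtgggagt
Tdrd5: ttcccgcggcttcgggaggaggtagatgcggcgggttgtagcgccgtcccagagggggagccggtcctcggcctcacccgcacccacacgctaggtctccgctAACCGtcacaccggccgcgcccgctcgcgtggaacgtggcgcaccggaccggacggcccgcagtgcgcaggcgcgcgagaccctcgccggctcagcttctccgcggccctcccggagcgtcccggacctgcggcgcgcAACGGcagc
Tdrd7: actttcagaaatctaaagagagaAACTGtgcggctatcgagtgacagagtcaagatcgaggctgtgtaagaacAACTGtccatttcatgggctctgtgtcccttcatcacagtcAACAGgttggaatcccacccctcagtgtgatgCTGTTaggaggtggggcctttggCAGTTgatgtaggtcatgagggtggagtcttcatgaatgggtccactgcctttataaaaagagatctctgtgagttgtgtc
Tdrkh: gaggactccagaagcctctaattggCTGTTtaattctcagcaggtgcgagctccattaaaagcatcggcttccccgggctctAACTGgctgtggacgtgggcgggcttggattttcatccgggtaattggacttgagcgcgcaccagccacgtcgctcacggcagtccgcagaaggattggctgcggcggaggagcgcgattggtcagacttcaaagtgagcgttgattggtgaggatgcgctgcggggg
The Tdrd5 window holds 2 matches, which start 147 and 9 bases before the start site, in a sequence of 75.2% G and C. The printed Tdrd7 window holds 5, at 227, 177, 136, 104 and 81 bases. Of all windows 19.3% hold at least 3 and 7.03% at least 4. The other listed Tdrd7 windows hold 2 and 3, with 62.0% and 73.2% G and C against 47.6% in the printed one. Tdrkh holds 2, at 225 (minus strand) and 168 bases. The printed Tdrd1 window holds 0, while the overlapping window of the next listed Tdrd1 start holds 1, at 65 bases. A further Tdrd1 window holds 2, at 209 and 120 bases. Counts for these genes thus depend on which start is printed. Of the 9 windows of the members, 8 hold a match. Of 32851 windows of the same length in the RefSeq table, 74.2% hold at least 1 match, so the letters are common and a match is only a description.

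The same stage comparison in KO-labelled cells showed all 6 members higher at pachytene, by 2.81 to 5.57, where 76.8% of all genes rose, 2.83% fell and the median change was 2.29. Every member had all pachytene libraries above all LZ libraries, as had 75.9% of genes. This comparison shares no library mean with the WT one. Both take their spread from all 12 libraries, so each gene has the same SE in both and the tests are not independent. Tdrd6 had the largest change, 5.57 (SE 0.28), followed by Tdrd5 at 5.03 (SE 0.25) and Tdrd1 at 5.01 (SE 0.19). Tdrd7 changed by 4.24 (SE 0.29), Tdrd9 by 3.69 (SE 0.23) and Tdrkh by 2.81 (SE 0.21). After median-ratio scaling 31.1% of all genes rose and 29.7% fell, and 5 of the 6 members rose, by 0.74 (Tdrd9) to 2.64 (Tdrd6). Tdrkh was at -0.17 (limma adjusted p = 0.492). With each library set to a common total, Tdrkh was called lower in this comparison (log2 change -0.75, adjusted p = 0.00336), opposite to the spike-in scale.

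Because every scaling multiplies all genes of a library alike, the share of each member in the sum of the 6 does not depend on it. The sum was 162.9 ± 23.1 FPKM (SD, n = 3) in WT LZ, 124.8 ± 17.0 in KO-labelled LZ, 1608 ± 284.9 in WT pachytene and 2823 ± 327.4 in KO-labelled pachytene libraries. The mitochondrial Tdrkh made up 32.3% ± 3.53 of the sum at LZ in WT and 13.6% ± 3.78 at pachytene, with ranges of 29.9% to 36.3% and 10.4% to 17.8%. Tdrd1 took the opposite course, from 12.2% ± 1.70 to 27.6% ± 1.16, and Tdrd5 went from 11.8% ± 2.02 to 21.0% ± 1.96. Neither pair of ranges overlapped. Tdrd7 had 18.9% ± 4.19 at LZ and 11.1% ± 0.745 at pachytene. In the pachytene libraries the shares are compared between genotypes as a description with no test, since they are tied to a common sum. Tdrd5 held 18.8% to 22.6% of the sum in WT against 23.3% to 25.1% in KO-labelled libraries, and Tdrd7 10.2% to 11.6% against 11.7% to 15.3%, which barely parts the ranges. Shares of Tdrd1 went the other way, 26.9% to 28.9% in WT against 20.8% to 25.8% in KO-labelled libraries, as did those of Tdrd9 with 8.49% to 9.00% against 7.05% to 8.38%. The shares of Tdrd6 and Tdrkh overlapped between genotypes.

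**Figure D3:**
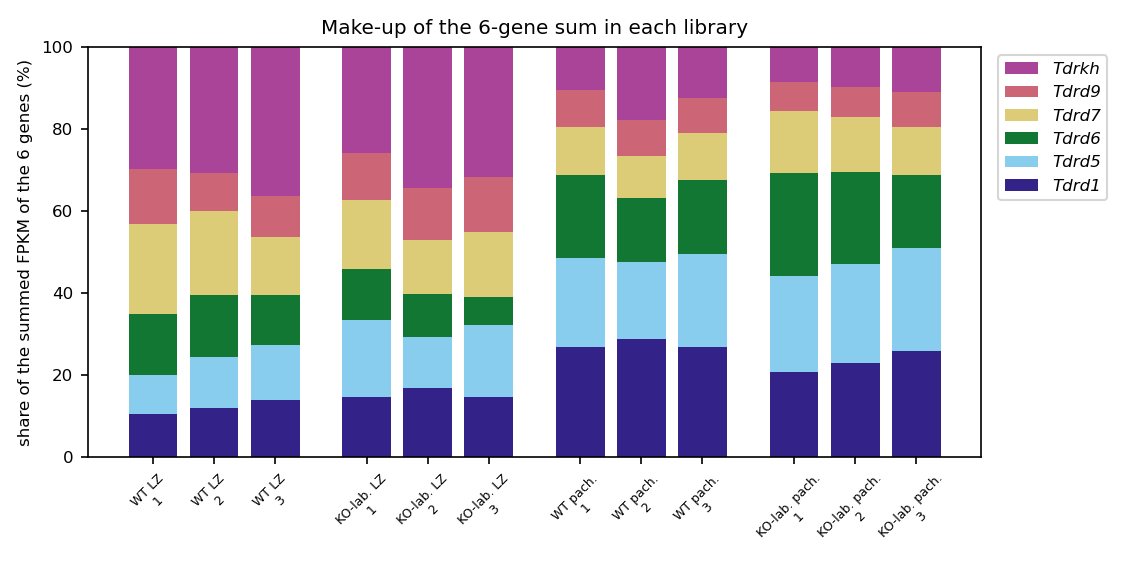
Share of each member in the summed FPKM of the 6 genes (percent, from 0 to 100), with 1 stacked bar for each library. Tdrkh takes on average 32.3% of the sum at LZ and 13.6% at pachytene in WT, and Tdrd1 12.2% and 27.6%.

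FPKM is per transcript length, so levels are ordered between genes here. The order is a description only, since the annotation that set the lengths is not given. In WT LZ the order of mean FPKM was Tdrkh, Tdrd7, Tdrd6, Tdrd1, Tdrd5 and Tdrd9, and only Tdrkh was separated from the next gene by ranges that did not overlap. In WT pachytene libraries the order was Tdrd1, Tdrd5, Tdrd6, Tdrkh, Tdrd7 and Tdrd9, with every neighbouring pair overlapping. In KO-labelled LZ libraries the order was Tdrkh, Tdrd5, Tdrd1, Tdrd7, Tdrd9 and Tdrd6, again with only Tdrkh separate from its neighbour. In KO-labelled pachytene libraries it was Tdrd5, Tdrd1, Tdrd6, Tdrd7, Tdrkh and Tdrd9; there the pairs Tdrd7 and Tdrkh, and Tdrkh and Tdrd9, did not overlap. By mean level the members stood between the 67.8th (Tdrd9) and 84.7th (Tdrkh) percentile of tested genes in WT LZ, and between the 77.9th (Tdrd9) and 90.4th (Tdrd1) percentile in WT pachytene libraries.

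The comparison of genotypes at LZ asked whether the members differ under the Rnaseh1 knock-out label before pachytene. None of the 6 was called, against 0.136% of all genes called higher and 12.9% called lower by limma, and the median gene changed by -0.43. At an unadjusted limma p under 0.05, 2 of the 6 were lower, and all genes were not counted at that threshold. Tdrd6 had 25.4, 27.4 and 16.6 FPKM in WT and 14.2, 12.0 and 9.61 in KO-labelled libraries, which did not overlap. Its log2 change was -0.88 (SE 0.28, 95% confidence interval -1.49 to -0.28, limma adjusted p = 0.0528). Tdrd7 had 37.9, 36.7 and 19.3 FPKM in WT and 19.2, 15.5 and 22.9 in KO-labelled libraries, which overlapped through WT replicate 3. The log2 change was -0.64 (95% confidence interval -1.26 to -0.01, limma adjusted p = 0.145). After median-ratio scaling Tdrd6 was at -0.34 (limma adjusted p = 0.445) and Tdrd7 at -0.07 (adjusted p = 0.866). Without WT LZ replicate 3 both were called lower on the spike-in scale, Tdrd6 at -1.10 (limma adjusted p = 0.0277) and Tdrd7 at -0.94 (adjusted p = 0.0351), while over the fits without 1 library the adjusted p reached 0.178 and 0.41.

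The other members lay closer to 0 at LZ on the spike-in scale, an order that did not hold after median-ratio scaling. Tdrd1 had 16.7, 19.9 and 21.2 FPKM in KO-labelled LZ libraries, inside and around the WT range of 18.1 to 21.8, with a log2 change of -0.03 (95% confidence interval -0.43 to 0.37) that turned to 0.55 after median-ratio scaling. Tdrd5 had 21.1, 14.4 and 25.5 FPKM against a WT range of 16.4 to 22.2, with a log2 change of 0.07 (95% confidence interval -0.47 to 0.60). After median-ratio scaling it was at 0.64 (limma adjusted p = 0.136), the highest of the 6. Tdrd9 was at -0.15 and turned to 0.42 after median-ratio scaling. Tdrkh had 29.5, 40.0 and 45.7 FPKM, all under the lowest WT library at 49.7, with a log2 change of -0.45 (limma adjusted p = 0.154) that turned to 0.13 after median-ratio scaling. Of all genes 36.5% had every KO-labelled LZ library below every WT one, as did Tdrd6 and Tdrkh. After median-ratio scaling none of the 6 was called, where 0.39% of all genes were called higher and 0.688% lower. At an unadjusted limma p under 0.05, 3 of the 6 were higher, and all genes were not counted at that threshold.

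At pachytene, 4 of the 6 members rose in KO-labelled libraries: Tdrd7, Tdrd6, Tdrd5 and Tdrd1. Of all genes 24.6% rose and 14.3% fell, and the median log2 change was 0.37. Every member had all 3 KO-labelled libraries above all 3 WT libraries, as had 36.4% of all genes. The largest changes were those of Tdrd7, Tdrd6 and Tdrd5. Tdrd5 had 723, 702 and 619 FPKM in KO-labelled against 345, 252 and 430 in WT pachytene libraries. This was a log2 change of 1.02 (SE 0.25, limma adjusted p = 0.0139). Tdrd6 had 780, 651 and 444 FPKM against 323, 209 and 346, with replicate 3 the lowest of the KO-labelled libraries. The log2 change was 1.09 (SE 0.28, limma adjusted p = 0.0164). Tdrd7 had 473, 390 and 289 FPKM against 184, 136 and 216, in the same order of KO-labelled libraries as Tdrd6. Its log2 change was 1.09 (SE 0.29, 95% confidence interval 0.47 to 1.72, limma adjusted p = 0.0178).

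The changes of Tdrd1, Tdrd9 and Tdrkh between genotypes at pachytene were smaller, though the difference between genes was not tested. Tdrd1 had 645, 669 and 636 FPKM in KO-labelled against 426, 386 and 512 in WT libraries, a log2 change of 0.57 (SE 0.19, limma adjusted p = 0.032). Tdrd9 had 219, 211 and 206 FPKM against 143, 116 and 162, and its log2 change of 0.61 (SE 0.23) was not called (limma adjusted p = 0.0533). Tdrkh had 263, 283 and 270 FPKM against 165, 237 and 239, and its log2 change of 0.36 (95% confidence interval -0.09 to 0.82) was at the median gene (limma adjusted p = 0.172). The KO-labelled libraries were closer together than the WT ones for these 3 genes. After median-ratio scaling only Tdrd7 was called higher (log2 change 0.73, limma adjusted p = 0.0226), where 3.28% of all genes were called higher and 9.68% lower, and Tdrd6 (0.73), Tdrd5 (0.66), Tdrd9 (0.25), Tdrd1 (0.21) and Tdrkh (0.01) were not called. With a common total per library none was called, 1 was under an unadjusted limma p of 0.05, and Tdrd1 (-0.01) and Tdrkh (-0.21) changed sign. None was called without WT pachytene replicate 2, KO-labelled pachytene replicate 1 or KO-labelled pachytene replicate 2, with 4 of the 6 under an unadjusted limma p of 0.05 in each case. Beside these values, the KO-labelled pachytene libraries had the higher pachytene marker sums and the lower round spermatid, spermatogonial, peritubular and Sertoli marker sums given above, whose part in the result was not tested.

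**Figure D4:**
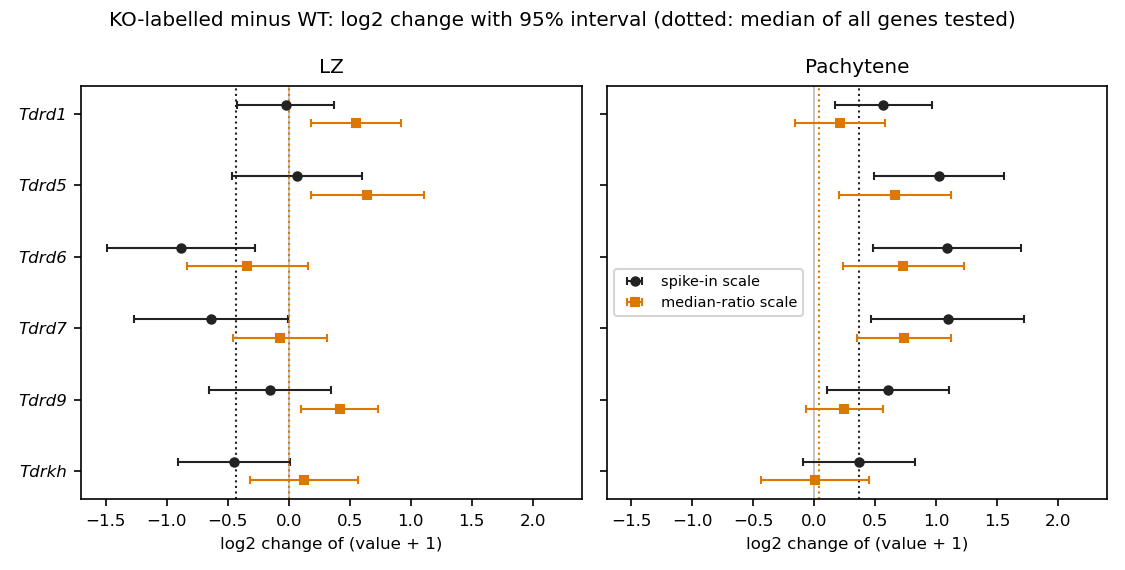
Log2 change of each member in KO-labelled against WT libraries at LZ and at pachytene, on the spike-in scale and after median-ratio scaling; points are limma estimates, bars their 95% confidence intervals, and dotted lines the medians of all genes. At pachytene Tdrd7, Tdrd6 and Tdrd5 lie highest on the spike-in scale (1.09, 1.09 and 1.02), and Tdrkh lies at 0.01 after median-ratio scaling.

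The difference between the genotype effects at the 2 stages was tested in the same model. Tdrd6 differed most, with a genotype effect 1.97 higher at pachytene than at LZ (SE 0.40, limma adjusted p = 0.0055), followed by Tdrd7 with 1.73 (SE 0.41, adjusted p = 0.0088). Tdrd5 (0.96, adjusted p = 0.046) and Tdrkh (0.82, adjusted p = 0.0466) also passed, while Tdrd9 (0.76, adjusted p = 0.0823) and Tdrd1 (0.59, adjusted p = 0.0868) did not. The 4 of 6 members stand beside 34.9% of all genes with a higher and 3.49% with a lower effect at pachytene, and a median difference of 0.72. Tdrd6 and Tdrd7 were called in each of the 12 fits without 1 library. Those 2 alone were called without WT LZ replicate 1 or 2, KO-labelled LZ replicate 1 or 2, WT pachytene replicate 1, or KO-labelled pachytene replicate 1 or 2. After median-ratio scaling none was called (2.29% of all genes were higher and 4.39% lower) and 2 were under an unadjusted limma p of 0.05: Tdrd6 had a difference of 1.07 (adjusted p = 0.0666) and Tdrd7 of 0.80 (adjusted p = 0.0722), Tdrd5 was at 0.02, and Tdrd1 (-0.34), Tdrd9 (-0.17) and Tdrkh (-0.12) changed sign.

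Other genes of the pathway were read from 3 lists: 10 other Tudor-domain genes (9 tested), 26 PIWI, piRNA and germ granule partners (23 tested), and 5 regulators of pachytene transcription (all tested). From LZ to pachytene in WT, 7 of the 9 other Tudor-domain genes rose and 0 fell, with a median log2 change of 2.43 beside 3.26 for the members and 1.64 for all genes. The 6 with the largest changes were Tdrd3 (3.10), Stk31 (2.85), Tdrd12 (2.83), Rnf17 (2.75), Lbr (2.43) and Smndc1 (1.83, which turned to -0.21 after median-ratio scaling). Of the partners, 21 of 23 rose, with a median of 2.22; Piwil1, which encodes the pachytene PIWI protein MIWI, changed by 5.09 and Pld6, a mitochondrial protein of piRNA biogenesis, by 3.77. Nanos3 (3.56), the helicases Ddx25 (3.25) and Ddx4 (3.07), and Gtsf1 (3.07) came next. Of the regulators 4 of 5 rose, Tcfl5 (3.59), Crem (3.10), Rfx2 (3.10) and Mybl1 (2.48), with a median of 3.10. These counts stand beside 80.9% of all genes that rose, so for each list the share is near the background. After median-ratio scaling 4 of the 9 other Tudor-domain genes rose and 2 fell, 9 of the 23 partners rose and 5 fell, and 3 of the 5 regulators rose and 1 fell, beside 20.2% and 18.1% of all genes. In KO-labelled cells 7 of 9, 19 of 23 and 4 of 5 rose between the stages, and 0, 1 and 1 fell, where 76.8% of all genes rose and 2.83% fell.

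At LZ, 1 of the 9 other Tudor-domain genes fell in KO-labelled libraries, Tdrd12 (log2 change -0.70, limma adjusted p = 0.0425), and 3 of the 23 partners fell: Ddx25, a helicase of late spermatogenesis (-1.12, adjusted p = 0.02), Mael (-0.85, adjusted p = 0.0278) and Gtsf1 (-0.76, adjusted p = 0.0239). Of all genes 12.9% fell, so these counts are near the background. None of the regulators was called by limma, with 1 of 5 lower at an unadjusted p under 0.05; Crem was at -0.74, and Tcfl5 was at -0.25 and turned to 0.33 after median-ratio scaling. The lists' medians of -0.36, -0.40 and -0.40 stood close to the -0.43 of all genes, and no gene of the 3 lists was called after median-ratio scaling (unadjusted limma p under 0.05, in list order, for 1, 3 and 0 higher and 0, 1 and 0 lower). Without WT LZ replicate 1 or 2, or KO-labelled LZ replicate 2 or 3, none of the other Tudor-domain genes or partners was called, with 1 to 3 and 5 to 10 of them lower at an unadjusted limma p under 0.05.

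At pachytene, 4 of the 9 other Tudor-domain genes rose in KO-labelled libraries and 1 fell, with a median of 0.53 beside 0.81 for the members. Of all genes 24.6% rose and 14.3% fell, with a median of 0.37, and the list counts here stand beside those shares. Tdrd3 rose most (1.18, limma adjusted p = 0.0169) and was also called after median-ratio scaling (0.82). Rnf17 rose by 0.70, Tdrd12 by 0.60 and Stk31 by 0.53, and Stk31 turned to -0.05 with a common total per library. Akap1, which anchors signalling proteins to mitochondria, fell by 1.82 (SE 0.57, adjusted p = 0.0276), from 66.2, 37.8 and 43.2 FPKM in WT to 11.7, 6.81 and 25.5 in KO-labelled libraries. These ranges did not overlap, opposite in direction to all 6 members. Of the 15400 genes tested, 2775 had every KO-labelled pachytene library below every WT one. In the fits without 1 library the limma adjusted p of Akap1 reached 0.101. Of the partners 10 of 23 rose and 4 fell, with a median of 0.55. Piwil1 went from 799.6 ± 170.8 to 1433 ± 11.8 FPKM (SD, n = 3; log2 change 0.86, limma adjusted p = 0.0188), Mael changed by 0.87 (adjusted p = 0.015) and Prmt5, which methylates the arginines that Tudor domains bind, by 0.87 (adjusted p = 0.0212). Those that fell were Nanos3 (-2.27, adjusted p = 0.00442), Tex15, which acts in piRNA-directed silencing (-1.82, adjusted p = 0.00273), Dnmt3l (-1.39, from a WT mean of 4.78 FPKM) and Dazl (-0.58, adjusted p = 0.0474), the last named after its values were seen. Of the regulators, Tcfl5 (1.22, adjusted p = 0.00677), Rfx2 (1.21, adjusted p = 0.00618) and Crem (0.72, adjusted p = 0.0403) rose and Taf7l fell (-2.57, adjusted p = 0.00704), while Mybl1 changed by 0.74 and was not called (adjusted p = 0.0645). After median-ratio scaling 1 of 9, 1 of 23 and 2 of 5 rose, and 0, 4 and 1 fell, beside 3.28% and 9.68% of all genes. Taken with its sign, the genotype effect was called higher at pachytene than at LZ for 6 of 9, 10 of 23 and 3 of 5 genes. It was called lower for 0, 2 and 1, and a lower value does not mean a weaker effect. Of all genes, 34.9% had a higher and 3.49% a lower signed effect. After median-ratio scaling the signed effect was higher for none (unadjusted limma p under 0.05 for 0, 2 and 1) and lower for 0, 2 and 1. The shares of all genes were then 2.29% higher and 4.39% lower. Without WT pachytene replicate 2, KO-labelled pachytene replicate 1 or KO-labelled pachytene replicate 2, 0 of the other Tudor-domain genes were called (3 to 5 higher and 1 lower at an unadjusted limma p under 0.05), and at most 1 of the partners rose while 2 or 3 fell. Without WT pachytene replicate 1, 1 of the other Tudor-domain genes rose, and 3 of the partners rose and 3 fell.

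**Figure D5:**
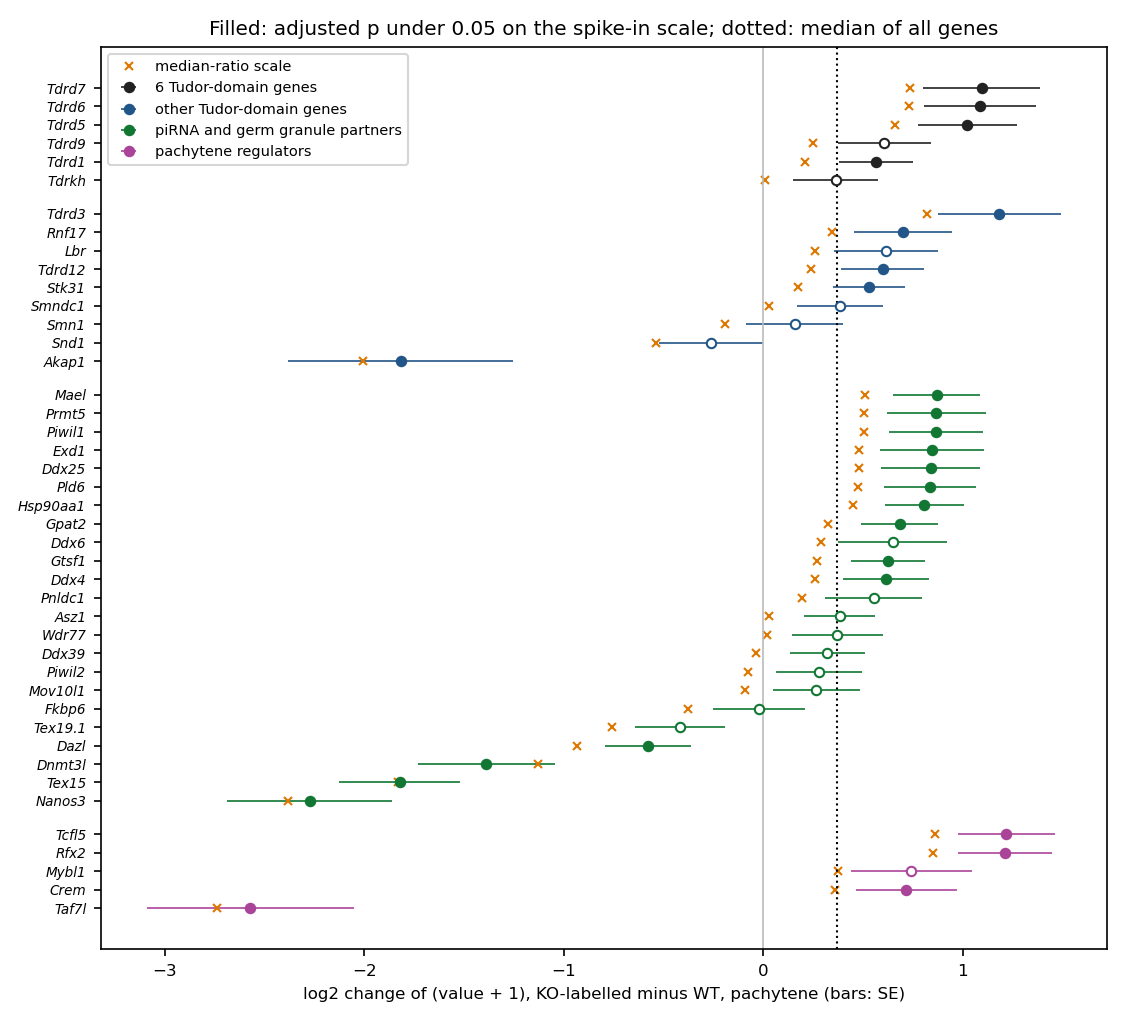
Log2 change in KO-labelled against WT pachytene libraries for the members and the tested genes of the 3 pathway lists, 1 circle per gene with its SE; filled circles are called by limma, crosses are values after median-ratio scaling, and the dotted line is the median of all genes, 0.37. The circles of all 6 members lie above 0, and those of Akap1, Nanos3, Tex15 and Taf7l lie far below it.

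The genes whose pattern was most like that of each member were found among 10832 genes with a mean of at least 5 FPKM. The measure was the root mean square difference of centred log2 values over the 12 libraries after median-ratio scaling, where 0 is an identical pattern. Tdrkh was nearest to Rfc4, a subunit of the clamp loader of DNA replication, at 0.09, and to Med10 at 0.0919. Tdrd9 was nearest to Srrt at 0.0975 and Ezh2, a histone methyltransferase, at 0.0989. Tdrd7 was nearest to Ppp2cb at 0.126 and Tdrd6 to Ttc18 at 0.125. Tdrd5 was nearest to Caps2 at 0.168, and Tdrd1 to 4930579G24Rik at 0.185. Among the members themselves, Tdrd1 and Tdrd5 were the closest pair at 0.271 and Tdrkh and Tdrd6 the farthest at 1.21. The median difference from all genes compared was 1.14 for Tdrd1, 1.1 for Tdrd5 and 1.11 for Tdrd6. It was lower for Tdrd7 (0.647), Tdrd9 (0.635) and Tdrkh (0.619), so distances are not on a like footing between members. Tdrkh was farther than its median from Tdrd1 (1.18), Tdrd5 (1.16), Tdrd6 and Tdrd7 (0.663), and nearer only to Tdrd9 (0.537). All points share the same 12 libraries, so these values are descriptions.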

How the data were processed

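RNA-seq of sorted spermatocytes gave 12 libraries, which fall into 4 groups of 3 by their titles. The deposited values are FPKM per gene, normalised by the authors to ERCC spike-in RNA, per the name of the deposited table. Reads were processed with TopHat2 2.1.1, Cufflinks 2.2.1 and build mm9, per the submitters' processing notes. The annotation and the scaling formula are not given in the sources used here. FPKM tables hold no counts, so the depth is unknown and no counting intervals are given. The table also has 4 columns without a name, which were not used. Genes with at least 1 FPKM in at least 3 libraries were kept (15400), and log2(FPKM + 1) was fitted in limma 3.58.1 (R 4.3.3) with 1 mean per group over all 12 libraries and a variance trend. A fold change on this scale understates the change of low genes. Two-sided p-values were adjusted by the Benjamini-Hochberg method over all genes tested, with a threshold of 0.05. Shares of all genes called use this adjusted threshold. Counts at an unadjusted p have no share of all genes beside them and are not to be set against those shares. The model was tested on simulated data. Alternatives were other pseudocounts, filters and scalings (median ratio to the geometric mean over libraries, or a common total), a replicate block, fits of only the groups compared, and leaving out each library.

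The members, the pathway lists and the marker lists were chosen with earlier results of these data known. All members were named, and from each pathway list at most 6 called genes, taken by size of change (at most 2 by mean level if no gene was called), in the WT stage comparison and both genotype comparisons. The lists' other comparisons are given as counts. Promoter sequences are from RefSeq, and coordinates are on GRCm38.p6 only.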

Additional observations from a re-analysis of the deposited data

Results flagged for a closer look

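For 4 members the genotype effect differed between the stages in a test of the difference itself (limma with Benjamini-Hochberg adjustment, spike-in scale, KO-labelled minus WT at pachytene less the same at LZ). The difference was 1.97 for Tdrd6, 1.73 for Tdrd7, 0.96 for Tdrd5 and 0.82 for Tdrkh, on the log2 scale. The LZ and pachytene changes behind them were -0.88 and 1.09 for Tdrd6, -0.64 and 1.09 for Tdrd7, 0.07 and 1.02 for Tdrd5, and -0.45 and 0.36 for Tdrkh. The median gene had a difference of 0.72, and none of the 4 was called after median-ratio scaling.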

How the results depend on the processing

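All 6 members were called higher at pachytene in both genotypes in each fit without 1 library. With median-ratio scaling and with a common total, in that order, signs turned for Tdrkh between stages (-0.0465 and -0.32 in WT, -0.17 and -0.75 in KO-labelled cells), for Smndc1 between stages in WT (-0.21 and -0.48), and for the genotype effect at LZ of Tdrd1 (0.55 and 0.65), Tdrd9 (0.42 and 0.52), Tdrkh (0.13 and 0.22) and Tcfl5 (0.33 and 0.43). The same held for the difference of genotype effects of Tdrd1 (-0.34 and -0.66), Tdrd9 (-0.17 and -0.48) and Tdrkh (-0.12 and -0.43). With a common total alone they turned for Tdrd7 at LZ (0.0257), for Tdrd1 (-0.0087), Tdrkh (-0.21) and Stk31 (-0.0451) at pachytene, and for the difference of Tdrd5 (-0.30). Leaving out 1 library moved the LZ effect of Tdrd1 from -0.0943 to 0.0663, of Tdrd5 from -0.11 to 0.28 and of Tdrd9 from -0.32 to 0.0298. The causes were not tested, except that each scaling shifts all genes of a library alike.

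Members called at LZ numbered 0, against 1 with a pseudocount of 0.1 and 1 with a filter of at least 5 FPKM, and 0 to 2 without 1 library. At pachytene 4 were called, against 1 with median-ratio scaling, 0 with a common total, and 0 to 5 without 1 library. For the difference of genotype effects 4 were called, against 0 with median-ratio scaling, 0 with a common total, and 2 to 4 without 1 library. Of all genes, 2013 were called between genotypes at LZ and 5980 at pachytene, against 166 and 1996 with median-ratio scaling, and 4 to 2943 and 1342 to 6915 without 1 library. For the difference 5919 were called, against 1029 with median-ratio scaling and 3748 to 6443 without 1 library. Between stages in WT 12530 were called, against 5891.

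Whether the replicate numbers pair the samples is not stated in the labels. Deviations from group means were correlated between same-numbered libraries. No pair of groups had every such correlation over 0.1, but so few values cannot exclude pairing. They were 0.0827, 0.259 and 0.141 for KO-labelled LZ with KO-labelled pachytene libraries, where differently numbered libraries gave -0.257 to 0.157. For WT with KO-labelled pachytene libraries the same-numbered values were -0.0758, 0.0803 and -0.167, and the differently numbered ones -0.110 to 0.168. With the replicate block, 1 member was called at LZ (Tdrd6, lower), 3 at pachytene and 2 for the difference of genotype effects.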

Other observations

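The 6 genes made up 0.0214% of all FPKM in WT LZ libraries, 0.0263% in KO-labelled LZ, 0.0420% in WT pachytene and 0.0492% in KO-labelled pachytene libraries (means of 3). The median number of AACNG matches in the RefSeq promoter windows was 1, and 42.0% of windows held at least 2.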
